A study of Mus musculus with 24 samples.

Results

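Prostate organoids labelled heterozygous for Brca1 (HET-labelled) were compared with wild-type (WT) organoids, both cultured without dihydrotestosterone (DHT), the potent androgen that prostate epithelium normally depends on. The 6 libraries were chosen by their titles, with 3 per group, out of 24 libraries of organoids and prostate tissue in the series. HET-labelled organoids carry the genotype label Brca1+/-. The WT organoids carry the wild-type label. Organoids of both labels cultured with DHT, organoids labelled Brca1-/- and anterior lobe tissue of HET-labelled and WT mice are used beside them. Per the labels' protocols, cells of both groups came from anterior prostate lobes of mice aged 3 months, were released with collagenase type II and were grown in Matrigel. The medium held EGF, Noggin, R-spondin, the TGF-beta receptor inhibitor A83-01, the ROCK inhibitor Y27632 and B27. R-spondin amplifies Wnt signalling, Noggin blocks BMP signalling, and both groups received them. The labels give neither the deleted exons of Brca1 nor any Cre driver, and they do not say whether replicates came from separate mice or cultures. The p-values therefore measure only the spread between libraries, which for organoids was estimated over all 18 organoid libraries of the series. Total RNA was sequenced, and bulk RNA cannot tell fewer cells of a type from less RNA per cell.

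Brca1 encodes a ubiquitin ligase subunit that, with its partner Bard1, promotes repair of DNA double-strand breaks by homologous recombination and protects stalled replication forks. Its own transcription follows the cell cycle. Genes of replication and repair are mostly transcribed around S phase, through E2F sites in their promoters, whereas genes of mitosis peak later through the CHR element (letters TTTGAA) and CCAAT boxes bound by NF-Y. The prostate epithelium grown in such organoids holds luminal cells, which secrete and respond to androgens, and basal cells, which attach to the basement membrane and make desmosomes, laminins and collagens.

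The 3 HET-labelled libraries held 29409564, 42857639 and 58445041 estimated reads, and the 3 WT libraries held 52642402, 47801802 and 45596929. HET-labelled replicate 1 stood apart. Mitochondrial genes took 9.43% of its reads, against 4.54% and 2.42% in HET-labelled replicates 2 and 3 and 2.87%, 3.10% and 5.06% in the WT replicates. Its log2 profile correlated with those of the other HET-labelled libraries at 0.9723 and 0.9517 across genes, whereas pairs of WT libraries reached 0.9816 to 0.9856. HET-labelled replicates 2 and 3 correlated at 0.9805. Pairs of a HET-labelled with a WT library ranged from 0.9439 to 0.9805, and HET-labelled replicate 1 reached 0.9613 with WT replicate 3. Correlations of whole profiles thus did not separate the libraries by label. Because HET-labelled replicate 1 stood apart, counts of genes are also given without it. Markers of epithelium (Epcam, Cdh1), luminal cells (Krt8, Krt18) and basal cells (Krt5, Trp63) were present in all 6 libraries. Of 12 fibroblast markers, Lum and C7 were under 3 reads everywhere, and the summed level was 59.1 to 64.1 TPM (abundance scaled for transcript length and depth) in HET-labelled and 86.6 to 106 TPM in WT libraries, most of it Pdpn and Dcn. Endothelial markers summed to 8.73 to 11.3 TPM in HET-labelled and 9.68 to 11.3 TPM in WT libraries. Leukocyte markers summed to 85.9 to 121 TPM in HET-labelled and 58.5 to 89.6 TPM in WT libraries, mostly Cd68. All 7 matched seminal vesicle markers were under 3 reads in every library.

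Brca1 RNA went against the genotype label. Brca1 (chr11:101488764-101551955, GRCm38, minus strand) had 20.2, 18.5 and 17.2 CPM (reads scaled to library size) in HET-labelled organoids, against 13.2, 11.2 and 14.2 CPM in WT organoids. All 3 HET-labelled libraries lay above all 3 WT libraries. The log2 change was 0.53 (SE 0.127), with an adjusted p of 0.0147 by the quasi-likelihood F-test of edgeR over all genes. That test gives every adjusted p below unless another tool is named. The call was lost without HET-labelled replicate 1, HET-labelled replicate 2 or WT replicate 2, and with the 6 libraries fitted alone. Between HET-labelled and WT, Brca1 was not called with DHT (log2 0.30, adjusted p = 0.212) or in tissue (-0.21, adjusted p = 0.997). Organoids labelled Brca1-/- without DHT also gave no call against the same WT libraries (-0.18, adjusted p = 0.596). The full-length transcript Brca1-201 stood at 3.81, 3.79 and 3.90 TPM in HET-labelled and 2.83, 2.53 and 3.06 TPM in WT libraries. A transcript that lacks some exons can still be counted, so the RNA level does not check the deletion, and every direction below rests on the labels.

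The best supported members of the mitotic list and the replication gene Chaf1a are shown by their promoters, because lists of division genes hold the highest shares of risen genes. The sequences are RefSeq windows on GRCm38.p6 covering 110 bases before to 40 bases after the annotated start, written along the gene's strand, with capitals marking TTTGAA or CCAAT on either strand. They lie at chr1:191821363-191821512 (plus strand, Nek2), chr2:172370531-172370680 (minus, Aurka), chr7:122159325-122159474 (plus, Plk1), chr9:70421515-70421664 (minus, Ccnb2) and chr17:56040306-56040455 (plus, Chaf1a).
Nek2: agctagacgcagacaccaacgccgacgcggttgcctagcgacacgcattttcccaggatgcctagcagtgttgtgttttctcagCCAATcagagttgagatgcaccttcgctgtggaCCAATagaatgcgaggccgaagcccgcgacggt
Aurka: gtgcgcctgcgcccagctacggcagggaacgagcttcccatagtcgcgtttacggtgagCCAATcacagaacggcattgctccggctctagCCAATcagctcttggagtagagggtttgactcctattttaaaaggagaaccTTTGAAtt
Plk1: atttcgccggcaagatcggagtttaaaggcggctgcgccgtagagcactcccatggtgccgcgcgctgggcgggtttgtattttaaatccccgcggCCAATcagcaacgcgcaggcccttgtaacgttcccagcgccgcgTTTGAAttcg
Ccnb2: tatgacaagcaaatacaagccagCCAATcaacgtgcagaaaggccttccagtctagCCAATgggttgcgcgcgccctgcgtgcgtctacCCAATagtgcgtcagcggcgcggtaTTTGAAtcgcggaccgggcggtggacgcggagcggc
Chaf1a: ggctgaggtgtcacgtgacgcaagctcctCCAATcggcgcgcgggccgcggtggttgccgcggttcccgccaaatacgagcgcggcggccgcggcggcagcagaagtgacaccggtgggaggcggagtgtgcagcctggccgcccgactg

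Aurka, Plk1 and Ccnb2 hold 1 TTTGAA each in these windows, and Nek2 and Chaf1a hold none. Over the full 300-base windows of the RefSeq table, TTTGAA occurred on either strand in 15.1% of 11005 tested genes with at least 1 window. A gene with several starts was counted if any of its windows held the letters, so such genes had more chances. It occurred in 10 of 17 risen members of the mitotic kinase list that matched the table, in 20 of 24 risen spindle and cytokinesis members, in 8 of 19 risen kinetochore members and in 2 of 20 risen replication members. CCAAT occurred in 42.9% of the tested genes, in 15 of the 17 mitotic kinase members and in 15 of the 20 replication members. The E2F letters TTTCCCGC or TTTGGCGC occurred in 3.15% of the tested genes, in 7 of the 20 replication members and in 0 of the 17 mitotic kinase members. TTTGAA and CCAAT can share an end base. These shares describe letters in windows and are not a test of binding.

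Of 15427 genes tested, 698 rose (4.52%) and 507 fell (3.29%) in HET-labelled relative to WT organoids without DHT, which is 7.81% in all. The median size of a called change was 0.84 on the log2 scale, and 307 genes rose and 160 fell by more than 1. The median over all genes was 0.003. The counts of list members called below are to be read beside the 4.52% that rose and the 3.29% that fell. With HET-labelled replicate 1 left out, 944 genes were called, 860 of them shared with the fit on all libraries. With the 6 libraries fitted alone, 398 were called, 394 of them shared.

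**Figure D1:**
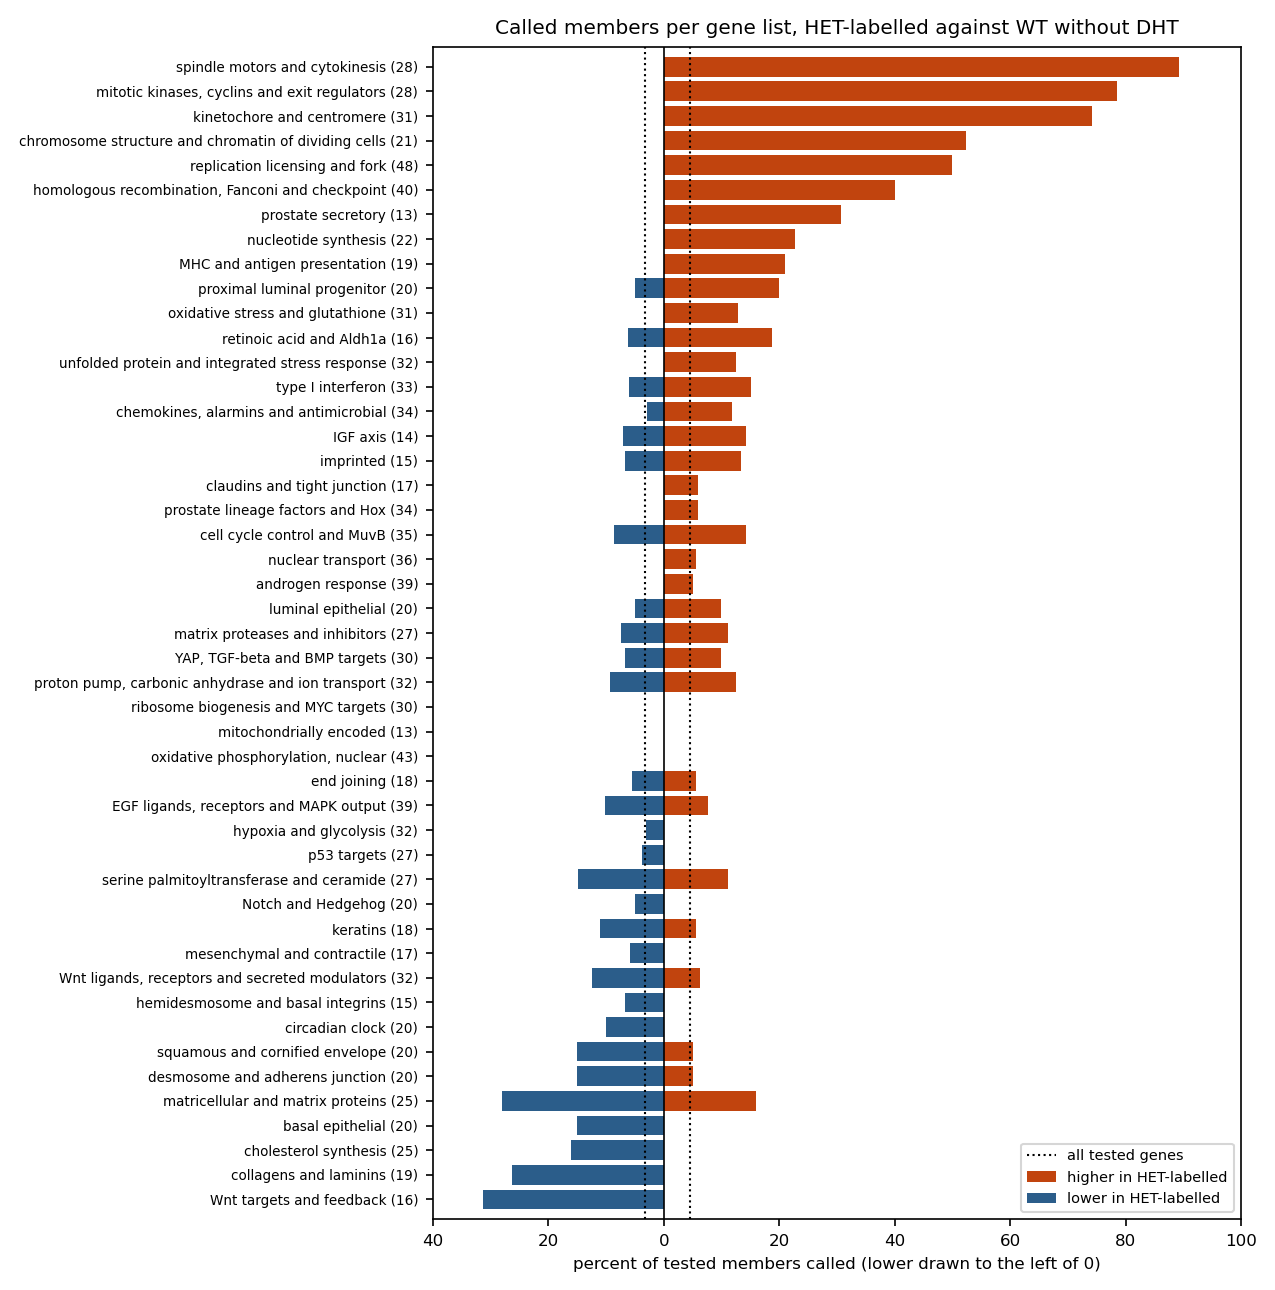
Percent of tested members of each gene list called higher (right of 0) or lower (left of 0) in HET-labelled than in WT organoids without DHT, with the number tested in brackets and dotted lines at the share over all tested genes. Lists of mitosis, chromosome structure and replication extend farthest to the right, while Wnt targets and collagens extend to the left.

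Genes that drive entry into and exit from mitosis were higher in HET-labelled organoids. Of 28 measured mitotic kinases, cyclins and exit regulators, 22 rose, 0 fell, and the median log2 change was 0.81. In 23 of them all HET-labelled libraries lay above all WT libraries, an arrangement found in 10.2% of all tested genes (20.3% without overlap in either direction). Nek2, a kinase that separates centrosomes, had 33.6, 35.3 and 37.5 CPM in HET-labelled and 17.6, 18.6 and 17.0 CPM in WT organoids (log2 1.00, SE 0.088, adjusted p = 3.26e-06). Its 2 groups are tight and far apart. Aurka, the spindle pole kinase, had 38.8, 40.2 and 40.9 CPM in HET-labelled and 21.67, 19.62 and 21.98 CPM in WT organoids (log2 0.92, SE 0.0821). Plk1, the kinase of mitotic entry and spindle assembly, had 45.4, 41.1 and 50.8 CPM in HET-labelled and 25.5, 25.5 and 23.3 CPM in WT organoids (log2 0.89). The B-type cyclin Ccnb2 rose by log2 0.83 (SE 0.0931), the checkpoint kinase Bub1b by 0.60 (SE 0.0724) and the mitotic kinase Pbk by 0.91 (SE 0.123). The CPM of the 28 genes summed to 1351, 1371 and 1400 in HET-labelled and 836, 821 and 824 in WT organoids, so HET-labelled replicate 1 did not stand apart in this sum.

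Spindle motors and cytokinesis genes moved the same way. Of 28 members, 25 rose and 0 fell, with a median log2 change of 0.85. Kif20a, a motor of the central spindle, had 70.0, 68.3 and 70.5 CPM in HET-labelled and 39.9, 36.5 and 39.4 CPM in WT organoids (log2 0.85, SE 0.0783, adjusted p = 4.13e-06). Racgap1, a regulator of the central spindle, had 61.9, 66.2 and 70.6 CPM in HET-labelled and 38.8, 35.5 and 37.7 CPM in WT organoids (log2 0.83, SE 0.0768). In both genes the lowest HET-labelled library stood more than 20 CPM above the highest WT library. The spindle scaffold Tacc3 rose by log2 0.86, the depolymerising kinesin Kif2c by 0.82, the cleavage furrow protein Anln by 0.96 and the midzone motor Kif23 by 0.98. Without HET-labelled replicate 1, 21 spindle members and 22 mitotic kinase members rose.

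Kinetochore and centromere genes, which attach chromosomes to the spindle, showed the highest median among the lists of division genes. Of 31 members, 23 rose, 0 fell, all 31 had a positive log2 change, and the median was 0.91. Cdca8, a subunit of the chromosomal passenger complex, had 44.9, 42.7 and 46.7 CPM in HET-labelled and 23.04, 22.31 and 23.52 CPM in WT organoids (log2 0.96, SE 0.0996, adjusted p = 1.40e-05). Zwilch, a subunit of the checkpoint complex that recruits dynein, had 20.6, 17.5 and 14.2 CPM in HET-labelled and 7.489, 7.503 and 9.103 CPM in WT organoids (log2 1.11, SE 0.131). The groups did not overlap in either gene. Birc5 (survivin, log2 1.03), Spc24 (0.99), Incenp (0.85) and the cohesin protector Sgo1 (1.09) also rose. The summed CPM was 1105, 900 and 764 in HET-labelled and 493, 440 and 570 in WT organoids. The sum was highest in HET-labelled replicate 1, the library with the highest mitochondrial read share. With that share as a covariate 27 members rose, while calls over all genes went from 1205 to 2281. Whether the share accounts for the higher sum was not tested. In the fit without HET-labelled replicate 1, 16 members rose, and without WT replicate 2, 13 rose.

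Proteins that shape and package chromosomes had 11 of 21 members higher, 0 lower and a median log2 change of 0.62. Uhrf1, which maintains DNA methylation at the fork, had 52.6, 52.6 and 63.2 CPM in HET-labelled and 31.8, 33.9 and 31.8 CPM in WT organoids (log2 0.79, SE 0.0947). The topoisomerase Top2a had 453.7, 429.3 and 341.6 CPM in HET-labelled and 203.9, 170.8 and 238.4 CPM in WT organoids (log2 1.00, SE 0.147). The proliferation marker Mki67 had 732.1, 561.4 and 450.8 CPM in HET-labelled and 298.2, 226.8 and 356 CPM in WT organoids (log2 0.99). Both Top2a and Mki67 were separated between groups with a wider spread than the mitotic kinases. The condensin subunits Ncaph (0.56) and Ncapd3 (0.69), the histone chaperone Asf1b (1.06) and the lamin Lmnb1 (0.55) rose as well. Mki67 was named after its values were seen.

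Replication genes were higher by smaller steps. Of 48 licensing and fork genes, 24 rose, 0 fell, all 48 log2 changes were positive, and the median was 0.51. The groups were separated in 33 of them. Lig1, the ligase that joins Okazaki fragments, had 66.1, 63.0 and 63.1 CPM in HET-labelled and 45.7, 41.2 and 44.5 CPM in WT organoids (log2 0.55, SE 0.0688, adjusted p = 8.83e-05). Chaf1a, the large subunit of the chromatin assembly factor, had 25.6, 27.9 and 29.0 CPM in HET-labelled and 16.4, 16.6 and 16.4 CPM in WT organoids (log2 0.74, SE 0.0963). Ticrr, an initiation factor, rose by log2 0.82, the origin licensing factor Cdc6 by 1.07 and the helicase subunit Cdc45 by 1.06. The MCM helicase genes Mcm2 to Mcm7 all rose, with Mcm4 at 59.1, 61.3 and 58.3 CPM in HET-labelled and 37.5, 37.2 and 41.2 CPM in WT organoids. The MCM genes were named after their values were seen. With HET-labelled replicate 1 left out, 22 of the 48 rose. Of 22 nucleotide synthesis genes 5 rose and 0 fell, with a median of 0.13, including the mitochondrial folate enzyme Mthfd2 (log2 0.71, SE 0.111) and the ribonucleotide reductase subunit Rrm2 (0.58).

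**Figure D2:**
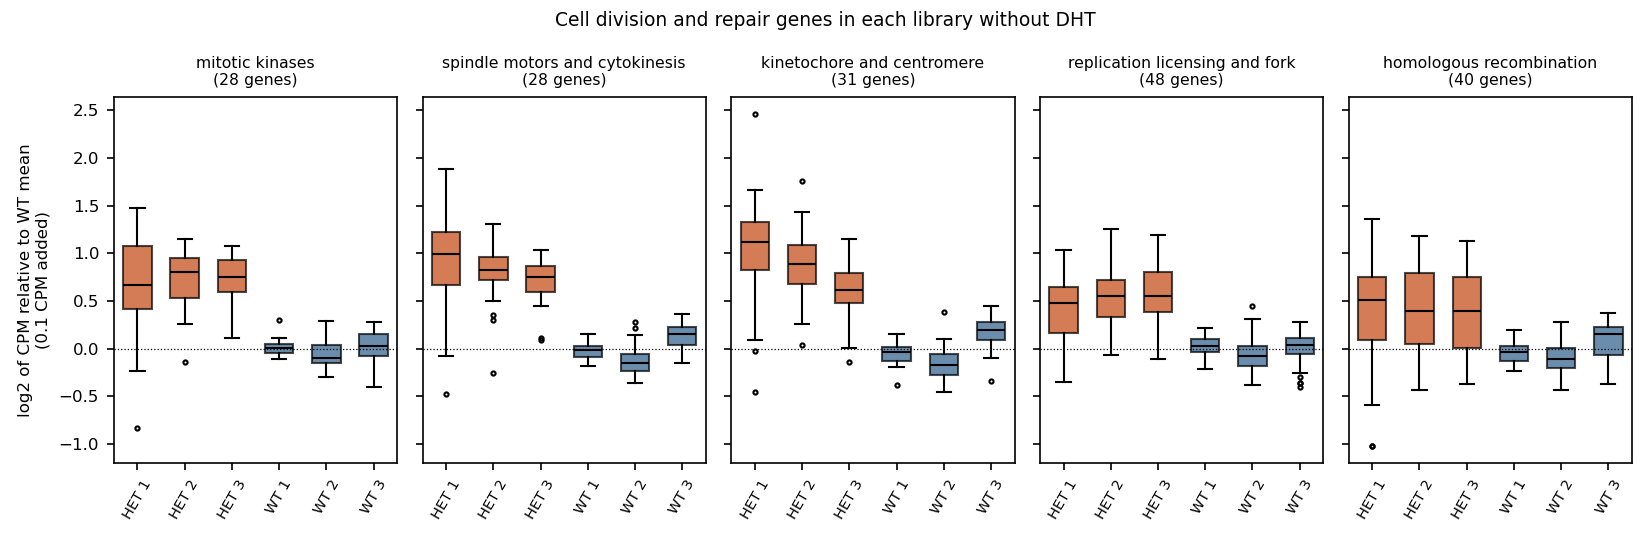
Boxes show, for each library, the log2 of CPM relative to the WT mean (0.1 CPM added) over the tested members of 5 lists, with medians as lines, whiskers to 1.5 interquartile ranges and points beyond them. In each list every HET-labelled median lies above every WT median, and HET-labelled replicate 1 is the highest for kinetochore genes.

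Homologous recombination genes, the pathway Brca1 acts in, rose in part. Of 40 members of this list, which includes Fanconi anaemia and checkpoint genes, 16 rose, 0 fell, and the median log2 change was 0.41. Rad51ap1, which promotes strand pairing in recombination, had 8.85, 8.32 and 8.06 CPM in HET-labelled and 3.93, 3.34 and 4.49 CPM in WT organoids (log2 1.10, SE 0.156, adjusted p = 0.000281). Its lowest HET-labelled library stood above its highest WT library. The recombination factors Rad54b (log2 0.97, SE 0.139) and Fignl1 (0.97), the resection nuclease Exo1 (1.07) and the Fanconi protein Fancd2 (0.78) rose. Bard1, the obligate partner of Brca1, had 10.4, 10.6 and 9.61 CPM in HET-labelled and 5.05, 5.40 and 6.46 CPM in WT organoids (log2 0.86). Palb2, which joins Brca1 to Brca2, rose by log2 0.55, and Brca2 itself had a log2 change of 0.41 and was not called. Bard1, Palb2 and Brca2 were named after their values were seen. The summed CPM of the list overlapped between groups, at 902, 800 and 695 in HET-labelled and 650, 608 and 737 in WT organoids. Leaving out HET-labelled replicate 1, 14 members rose, and without WT replicate 2, 10 rose.

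End joining genes did not move as a group, with a median of 0.07. Of 18 members 1 rose and 1 fell, against 4.52% and 3.29% of all tested genes. The risen gene was Polq, the polymerase of microhomology-mediated end joining, at 4.72, 3.86 and 3.89 CPM in HET-labelled and 1.49, 1.62 and 2.34 CPM in WT organoids (log2 1.19, SE 0.175, adjusted p = 0.000364). The gene that fell was the ligase Lig3, at 80.2, 85.2 and 90.9 CPM in HET-labelled and 108.5, 107.9 and 109.8 CPM in WT organoids (log2 -0.35, SE 0.0734). Both were separated between groups.

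Regulators of the cell cycle went both ways. Of 35 members, 5 rose and 3 fell, with a median of 0.17. The repressive E2F genes E2f7 (log2 1.00, SE 0.149) and E2f8 (0.83), the mitotic transcription factor Foxm1 (0.79), the retinoblastoma relative Rbl1 (0.62) and the CDK4/6 inhibitor Cdkn2c (0.47) rose. The G1 cyclin Ccnd2 fell to 474, 456 and 427 CPM in HET-labelled organoids, against 680, 684 and 698 CPM in WT organoids (log2 -0.60, SE 0.0868, adjusted p = 0.000306). Neither group spread beyond 50 CPM. The INK4 inhibitor Cdkn2b fell to 42.7, 40.4 and 45.7 CPM in HET-labelled organoids, against 70.5, 75.9 and 59.5 CPM in WT organoids (log2 -0.68, SE 0.114). Its neighbour Cdkn2a, which encodes p16 and p19Arf, had 19.01, 23.56 and 41.02 CPM in HET-labelled and 67.5, 104.8 and 52.1 CPM in WT organoids (log2 -1.42, SE 0.322), and its call was lost without HET-labelled replicate 1 or 2 or WT replicate 2. Of 27 p53 targets 0 rose and 1 fell, the antiproliferative gene Btg2 (log2 -0.49, SE 0.121), whose call was lost without any of HET-labelled replicate 1 or 2 or WT replicate 1 or 2. The p53 target Cdkn1a, named after its values were seen, had 545, 463 and 500 CPM in HET-labelled and 516, 607 and 469 CPM in WT organoids, and the groups overlapped.

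The desmosomal cadherin genes Dsc3 and Dsg3 were lower in HET-labelled organoids. Dsc3, a desmosomal cadherin of basal cells (chr18:19960930-20002351, GRCm38, minus strand), fell to 31.2, 32.4 and 25.8 CPM in HET-labelled organoids, against 94.8, 82.3 and 98.2 CPM in WT organoids (log2 -1.62, SE 0.143, adjusted p = 3.26e-06). Its partner cadherin Dsg3 fell to 83.3, 82.4 and 66.9 CPM in HET-labelled organoids, against 128, 133 and 149 CPM in WT organoids (log2 -0.81, SE 0.116). Both cadherins were separated between groups by more than 40 CPM. Of 20 desmosome and adherens junction genes 3 fell and 1 rose, with a median log2 change of -0.21 and 3 positive values. The desmosomal plaque protein Dsp was the gene that fell beside the cadherins (log2 -0.36, call lost without HET-labelled replicate 2 or 3 or any WT replicate), and plakophilin 2 (Pkp2) rose (log2 0.35, lost without HET-labelled replicate 2 or WT replicate 3). Summed CPM was 7680, 7506 and 7663 in HET-labelled and 8805, 9173 and 8685 in WT organoids. Without HET-labelled replicate 2, 2 genes of the list fell and 0 rose.

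Among 20 basal epithelial markers 3 fell and 0 rose, with a median of -0.31. These were Dsc3, Dsg3 and the hemidesmosomal collagen Col17a1, which had 576, 580 and 702 CPM in HET-labelled and 909, 999 and 799 CPM in WT organoids (log2 -0.54, SE 0.114). The basal keratins Krt5 and Krt14 had log2 changes of -0.43 and -0.66 and were not called, and neither was the basal transcription factor Trp63 (-0.25). The basal keratin Krt15 did not go the same way, with 1183, 1115 and 1383 TPM in HET-labelled and 1034, 1192 and 955 TPM in WT libraries. Krt17 had 117, 150 and 232 TPM in HET-labelled and 252, 295 and 195 TPM in WT libraries. Both keratins overlapped between groups. Krt5, Krt14, Krt15, Krt17 and Trp63 were named after their values were seen. With HET-labelled replicate 3 left out, 6 basal markers fell. Of 18 keratins, Krt23 rose to 92.4, 104.5 and 103.5 CPM in HET-labelled organoids, against 47.8, 32.6 and 36.3 CPM in WT organoids (log2 1.36, SE 0.139), while the stress keratin Krt16 (-0.99, SE 0.145) and Krt20 (-0.73) fell. Among 20 squamous genes, the secreted keratinocyte protein Dmkn (-1.43, SE 0.128), filaggrin (Flg, -1.61) and loricrin (Lor, -2.12) fell and Sprr1a rose (0.69). Calls for Krt20 and Lor were lost without HET-labelled replicate 1 or 2 or WT replicate 1. Without HET-labelled replicate 3, 1 keratin rose and 4 fell. In the fit on all libraries 4.52% of all tested genes rose and 3.29% fell.

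Several Wnt target and feedback genes were lower. Of 16 tested, 5 fell and 0 rose, and the median log2 change was -0.43. Apcdd1, a membrane-bound Wnt inhibitor induced by the pathway, fell to 9.43, 8.41 and 10.1 CPM in HET-labelled organoids, against 23.7, 23.1 and 22.1 CPM in WT organoids (log2 -1.30, SE 0.104, adjusted p = 1.17e-06). Axin2, the negative feedback scaffold, fell to 19.99, 16.42 and 19.82 CPM in HET-labelled organoids, against 40.5, 38.2 and 40.4 CPM in WT organoids (log2 -1.08, SE 0.129). HET-labelled values were below every WT value in both genes. The R-spondin-regulated ubiquitin ligases Znrf3 (-0.72, SE 0.124) and Rnf43 (-0.41) and the secreted Wnt inhibitor Wif1 (-0.86) fell too. The call for Rnf43 was lost without each of the 6 libraries except HET-labelled replicate 3. Summed CPM of the 16 genes, dominated by other members, overlapped between groups, at 2618 to 3004 in HET-labelled and 2728 to 2866 in WT organoids.

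Wnt ligands, receptors and modulators went both ways, with 2 of 32 higher and 4 lower. Over all tested genes 4.52% rose and 3.29% fell. Wnt5a, a ligand of the noncanonical pathway, rose to 21.4, 20.5 and 21.96 CPM in HET-labelled organoids, against 10.5, 12.8 and 11.9 CPM in WT organoids (log2 0.86, SE 0.128). The receptor Fzd4 rose by log2 0.45. The receptors Fzd6 (-0.54, SE 0.0723) and Fzd2 (-1.84), the Wnt carrier Wls (-0.31) and the Wnt5a receptor Ror1 (-0.84) fell. Wls lost its call without WT replicate 1 or 3, and Ror1 without HET-labelled replicate 1 or 3 or WT replicate 1 or 3.

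**Figure D3:**
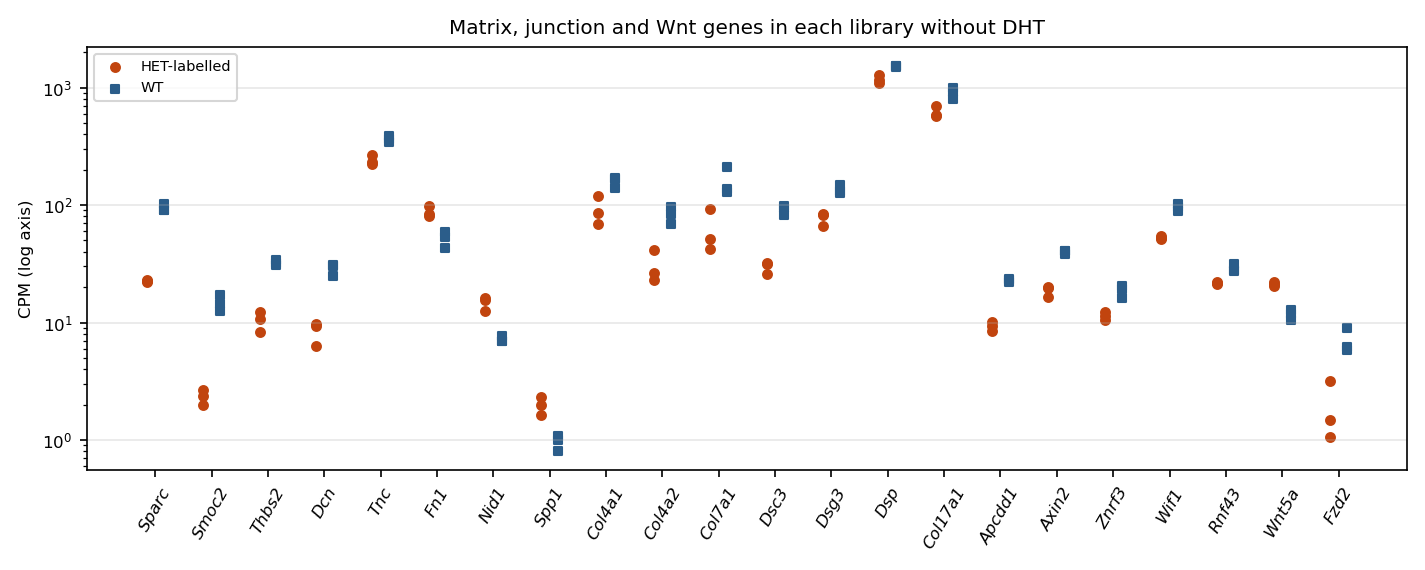
CPM on a log axis of matrix, junction and Wnt genes, with 1 point per library for the 3 HET-labelled libraries (circles, left) and the 3 WT libraries (squares, right). Sparc, Smoc2, Dcn, Dsc3, Apcdd1 and Axin2 are lower in every HET-labelled library, and Fn1, Nid1, Spp1 and Wnt5a are higher.

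Secreted matrix proteins showed large changes in both directions. Of 25 matricellular and matrix genes, 4 rose and 7 fell, with a median of 0.04. Sparc, a collagen-binding matricellular protein (chr11:55394500-55423183, GRCm38, minus strand), fell to 22.9, 22.5 and 22.2 CPM in HET-labelled organoids, against 101.9, 91.5 and 91.4 CPM in WT organoids (log2 -2.07, SE 0.0929, adjusted p = 1.60e-09). The HET-labelled values differed by less than 1 CPM among themselves. Smoc2, of the same protein family, fell to 1.995, 2.346 and 2.661 CPM in HET-labelled organoids, against 17.3, 12.6 and 14.3 CPM in WT organoids (log2 -2.65, SE 0.168). Spock1, a testican proteoglycan also related to Sparc (chr13:57421195-57908332, GRCm38, minus strand), went the other way. It had 65.1, 54.2 and 47.5 CPM in HET-labelled and 0.111, 0.445 and 0.282 CPM in WT organoids (log2 7.64, SE 0.269, adjusted p = 8.60e-11). Thrombospondin 2 (Thbs2, -1.64), the small proteoglycan Dcn (-1.77), Tnc (-0.60), Vcan (-1.23) and Fbln2 (-1.91) fell, whereas nidogen (Nid1, 1.02), fibronectin (Fn1, 0.76) and osteopontin (Spp1, 1.04) rose.

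Several collagens of the basement membrane were lower. Of 19 collagen and laminin genes 5 fell and 0 rose, with a median of -0.49, and in 10 of them every HET-labelled library lay below every WT library (10.1% of all tested genes). Col4a2, a type IV collagen chain, fell to 23, 26.6 and 41.5 CPM in HET-labelled organoids, against 83.3, 97.1 and 69.5 CPM in WT organoids (log2 -1.45, SE 0.226, adjusted p = 0.000609). The anchoring fibril collagen Col7a1 (-1.34, SE 0.268), Col4a5 (-0.61), Col4a1 (-0.79) and Col16a1 (-1.05) fell. Without HET-labelled replicate 1, HET-labelled replicate 2 or WT replicate 2, 3 of the 5 calls were made. Dcn is also a fibroblast marker, and the fibroblast marker sum given above was lower in every HET-labelled library. The defining fibroblast genes Col1a1, Pdgfra and Lum were each under 1 TPM in all 6 libraries. Vimentin (Vim) was the 1 called gene of 17 mesenchymal and contractile genes, at 3.70, 3.69 and 3.87 CPM in HET-labelled and 7.27, 11.5 and 9.10 CPM in WT organoids (log2 -1.30, SE 0.185). Without HET-labelled replicate 3, 2 mesenchymal genes rose and 1 fell, and without WT replicate 2, 1 rose and 1 fell.

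Matrix proteases and their inhibitors had 3 of 27 members higher and 2 lower, where 4.52% of all tested genes rose and 3.29% fell. The versican-cleaving protease Adamts9 fell to 31.5, 32.5 and 32.3 CPM in HET-labelled organoids, against 61.10, 59.98 and 64.76 CPM in WT organoids (log2 -0.95, SE 0.0913), and Adamts1 fell by 0.41 on the log2 scale. The metalloprotease inhibitor Timp3 rose to 18.6, 17.7 and 14.9 CPM in HET-labelled organoids, against 6.94, 8.05 and 10.8 CPM in WT organoids (log2 0.99, SE 0.207). Timp2 (0.34) and the plasminogen activator Plat (0.60) rose, and neither call held without HET-labelled replicate 2 or WT replicate 3, nor that of Plat without HET-labelled replicate 3 or WT replicate 2. Without HET-labelled replicate 2 or WT replicate 3 the list held 1 higher and 2 lower genes, and without HET-labelled replicate 3 it held 3 higher and 6 lower. Of 30 YAP, TGF-beta and BMP target genes, 3 rose and 2 fell, beside the same shares of all tested genes. Ankrd1, a YAP target, rose to 19.7, 26.3 and 18.7 CPM in HET-labelled organoids, against 6.14, 6.47 and 8.74 CPM in WT organoids (log2 1.60, SE 0.231), while Yap1 itself had a log2 change of -0.28 and a call that was lost without each of HET-labelled replicates 1 and 2 and WT replicates 1, 2 and 3. Without HET-labelled replicate 2, WT replicate 1 or WT replicate 3, 2 of the 30 rose and 1 fell.

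Androgen response genes were called at about the share of all tested genes, although a larger share of them lay below WT without overlap. Of 39 androgen response genes 2 rose and 0 fell, with a median of -0.02, where 4.52% of all tested genes rose and 3.29% fell. They included the centromere gene Cenpn (0.76), whose call was lost without WT replicate 2. Without HET-labelled replicate 2 or any WT replicate, 1 of the list rose. Without HET-labelled replicate 3 the list had 3 higher genes and 1 lower. In 10 of the 39 every HET-labelled library lay below every WT library, an arrangement found in 10.1% of all tested genes. In 4 of the 39 every HET-labelled library lay above, against 10.2% of all tested genes. With DHT 1 of the list rose and 4 fell, where 4.03% of all tested genes rose and 3.47% fell. Fkbp5, a standard androgen-induced gene named after its values were seen, had 18.4, 20.9 and 25.0 CPM in HET-labelled and 18.7, 19.7 and 18.3 CPM in WT organoids, and was not called.

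The mineralocorticoid receptor gene Nr3c2 was the 1 called member of the steroid receptor genes. It had 8.23, 6.13 and 5.56 CPM in HET-labelled and 2.91, 3.86 and 4.23 CPM in WT organoids, and the groups were separated (log2 0.85, SE 0.18, adjusted p = 0.00682). The glucocorticoid receptor Nr3c1 had a log2 change of 0.10 (SE 0.153, adjusted p = 0.805). The oestrogen receptors Esr1 (-0.18, SE 0.104, adjusted p = 0.4) and Esr2 (0.00, SE 0.454, adjusted p = 1) were not called, and Pgr did not pass the filter on low counts.

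Luminal and secretory genes held scattered rises, where 4.52% of all tested genes rose and 3.29% fell. Tspan8, a luminal tetraspanin, had 218, 204 and 176 CPM in HET-labelled and 107.4, 94.0 and 102.9 CPM in WT organoids (log2 0.97, SE 0.105, adjusted p = 2.26e-05). Among 20 luminal markers 2 rose and 1 fell, the stem cell marker Prom1 (-0.34, lost without HET-labelled replicate 1 or 3 or any WT replicate). Without WT replicate 1 or 3, 1 luminal marker rose and 0 fell. Of 20 genes of proximal luminal progenitors, Psca, Lcn2, Sult1c2 and Clu rose and the water channel Aqp3 fell. Psca, prostate stem cell antigen, had 224, 184 and 187 CPM in HET-labelled and 116.5, 111.4 and 93.9 CPM in WT organoids (log2 0.89, SE 0.135), and Clu, a secreted chaperone, had 887, 884 and 1113 CPM in HET-labelled and 713, 639 and 564 CPM in WT organoids (log2 0.59). Both were separated between groups. Aqp3 (-0.84) lost its call without HET-labelled replicate 1 or 2 or WT replicate 2. Of 13 prostate secretory genes 4 rose and 0 fell, namely Ceacam10 (1.52, SE 0.165), the gap junction gene Gjb2 (0.71), the ion channel Piezo2 (3.29) and the proton pump Atp12a (1.24). Among 34 lineage and Hox genes 2 rose and 0 fell, with a median of 0.05, close to the share of all tested genes that rose. Of these 2, Hoxd11 had 30.44, 21.98 and 16.49 CPM in HET-labelled and 9.87, 11.4 and 12.2 CPM in WT organoids (log2 1.04, SE 0.186). Without HET-labelled replicate 3, 2 lineage genes rose and 2 fell, and without HET-labelled replicate 2 or WT replicate 1, 1 rose and 0 fell.

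Mucosal defence and antigen presentation genes held more rises than falls, as did all tested genes (4.52% rose and 3.29% fell). The immunoglobulin transporter Pigr rose to 370, 406 and 389 CPM in HET-labelled organoids, against 216, 199 and 229 CPM in WT organoids (log2 0.86, SE 0.0847, adjusted p = 8.31e-06). The complement gene Cfb rose to 5.48, 8.66 and 11.4 CPM in HET-labelled organoids, against 1.48, 1.52 and 1.69 CPM in WT organoids (log2 2.45, SE 0.28). Both were above every WT value in every HET-labelled library. Among 34 chemokine, alarmin and antimicrobial genes 4 rose, including the iron-binding Lcn2 (0.76) and Ccl28, and 1 fell, Tnfaip3, an inhibitor of NF-kappaB (-0.46). Tnfaip3 lost its call without HET-labelled replicate 1 or 2 or WT replicate 1, and Ccl28 (1.42) without any of the 3 HET-labelled replicates or WT replicate 2 or 3. Without HET-labelled replicate 2, 3 of the list rose and 0 fell.

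Of 19 MHC genes 4 rose and 0 fell, where 4.52% of all tested genes rose and 3.29% fell. The class I genes H2-Q6 (log2 2.11, SE 0.26) and H2-Q7 (1.497, SE 0.184) led, and H2-Ab1 of class II (1.29) and the immunoproteasome subunit Psmb8 (1.03) followed. The call for Psmb8 was lost without HET-labelled replicate 2 or 3 or WT replicate 3. H2-Q6 and H2-Q7 are near-identical genes among which reads could be split, so their separate values are uncertain. Among 33 interferon genes 5 rose and 2 fell, with a median log2 change of 0.03. Oasl1 had 14.2, 19.3 and 28.0 CPM in HET-labelled and 7.69, 6.39 and 7.46 CPM in WT organoids (log2 1.52, SE 0.217), and Oas2 (1.21), Isg20 (0.62) and Oas3 (0.72) rose, whereas Mx2 (-1.24, SE 0.204) and Trim25 (-0.38) fell. Oas3 lost its call without HET-labelled replicate 3 or WT replicate 2 or 3, and Trim25 without HET-labelled replicate 1 or 2 or WT replicate 1 or 3. Without WT replicate 3, 3 interferon genes rose and 1 fell.

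Metabolic lists differed in direction. Of 25 cholesterol synthesis genes 4 fell and 0 rose, with a median of -0.27 and 2 positive values. Hsd17b7, an enzyme of the pathway, fell to 10.45, 13.15 and 11.44 CPM in HET-labelled organoids, against 16.58, 20.59 and 22.63 CPM in WT organoids (log2 -0.77, SE 0.127), and Dhcr7 (-0.95) and Sqle (-0.34) fell. Dhcr7 lost its call without HET-labelled replicate 1 or 2 or WT replicate 2, and Sqle without HET-labelled replicate 1 or 3 or any WT replicate. Without HET-labelled replicate 1 or WT replicate 2, 2 of the list fell. Glutathione genes had 4 of 31 members higher and 0 lower. Gstp1, a glutathione transferase, rose to 262, 339 and 377 CPM in HET-labelled organoids, against 133, 141 and 110 CPM in WT organoids (log2 1.35, SE 0.217), and the selenoprotein Gpx3 rose by log2 1.73 (SE 0.23). Gstp1 was separated between groups. Without HET-labelled replicate 3, 7 glutathione genes rose.

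Retinoid handling changed in a few genes. Of 16 genes 3 rose and 1 fell, against 4.52% and 3.29% of all tested genes. Crabp2, which carries retinoic acid to its receptor, fell (-0.70, lost without WT replicate 3), and the catabolic enzyme Cyp26b1 (0.39, lost without WT replicate 1) and Rdh10 (0.36, lost without HET-labelled replicate 1 or 2 or any WT replicate) rose. Without WT replicate 1, 1 of the 16 rose and 1 fell, and without WT replicate 3, 2 rose and 0 fell. In sphingolipid synthesis Sptssb, a small subunit of serine palmitoyltransferase, fell to 0.472, 0.372 and 0.239 CPM in HET-labelled organoids, against 3.63, 7.04 and 6.78 CPM in WT organoids (log2 -4.05, SE 0.493, adjusted p = 6.88e-05). The alkaline ceramidase Acer2 rose to 52.9, 42.6 and 34.2 CPM in HET-labelled organoids, against 17.58, 17.96 and 18.21 CPM in WT organoids (log2 1.27, SE 0.125). In this list of 27, 3 rose and 4 fell, which became 2 and 2 without WT replicate 2 and 2 and 1 without WT replicate 3.

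Oxidative phosphorylation, with 43 nuclear genes, and ribosome biogenesis, with 30, each held 0 called genes in edgeR. Their median log2 changes were 0.04 and 0.01. In each of the lists 1 gene had an unadjusted p under 0.05, and DESeq2 called 0. Leaving out HET-labelled replicate 3, 1 of the 43 rose. The 13 mitochondrially encoded genes summed to 100279, 45105 and 22447 CPM in HET-labelled and 27781, 29917 and 49888 CPM in WT organoids, and 0 of them were called (0 at an unadjusted p under 0.05 and 0 in DESeq2). The HET-labelled values spanned those of all 3 WT libraries.

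The largest single changes included several genes with near-identical copies. Rpl34-ps1, annotated as a processed pseudogene of a ribosomal protein gene, had 119.8, 163.7 and 188.9 CPM in HET-labelled and 0.0369, 0.0404 and 0.0433 CPM in WT organoids, which is 2 reads in each WT library. Rpl34, its parent by name, had 162, 213 and 238 CPM in HET-labelled and 401, 387 and 314 CPM in WT organoids. The sum of both was 282, 377 and 427 CPM in HET-labelled and 401, 387 and 314 CPM in WT organoids, a log2 ratio of means of -0.02. Eno1b, an intronless copy of the enolase gene Eno1, had 553, 542 and 665 CPM in HET-labelled and 5.31, 3.58 and 8.58 CPM in WT organoids, while Eno1 had 640, 926 and 1182 CPM in HET-labelled and 1565, 1728 and 1328 CPM in WT organoids. Their sum was 1193, 1469 and 1847 CPM in HET-labelled and 1570, 1732 and 1336 CPM in WT organoids, a log2 ratio of -0.04. The summed levels thus overlapped between groups although the split between copy and parent did not. The separate values of these 4 genes are uncertain, since reads can be split between copies. In tissue, taken from anterior lobes, Rpl34-ps1 had 0.0531 and 181.7 CPM in the 2 HET-labelled libraries and 138.2 and 263.9 CPM in the 2 WT libraries, so libraries with the same label differed there.

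**Figure D4:**
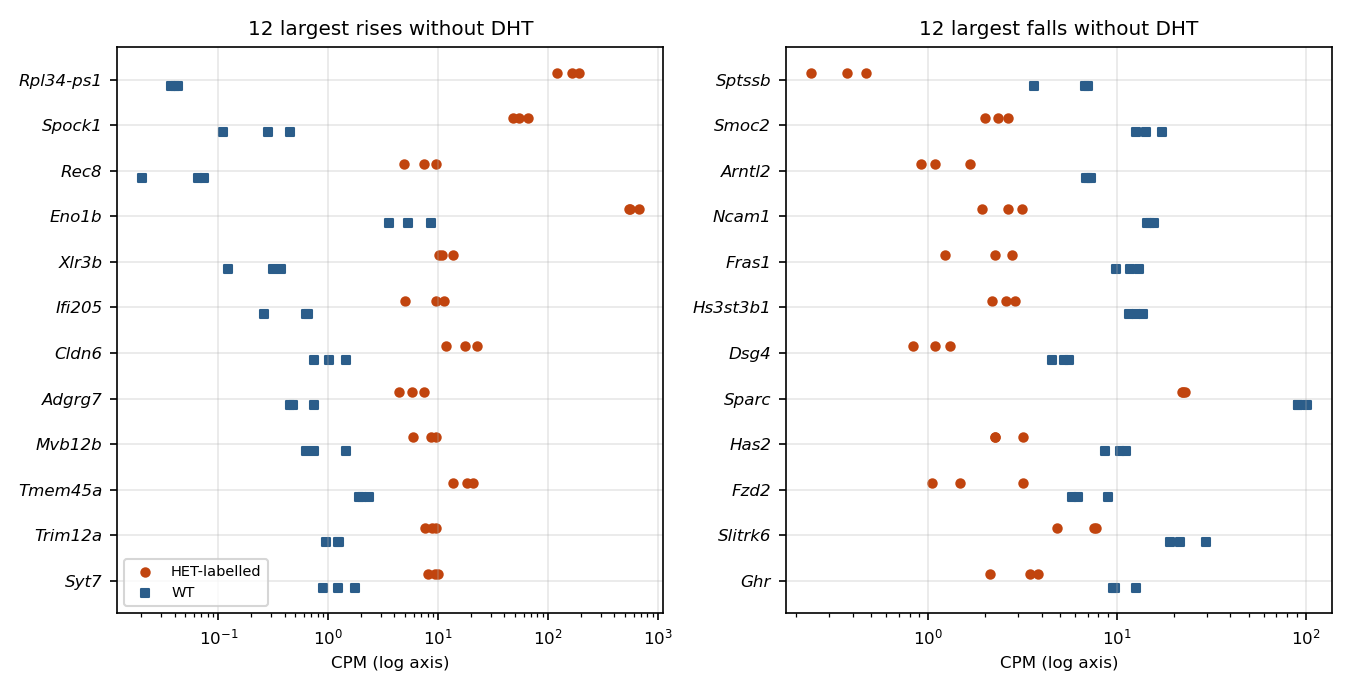
CPM on a log axis of the 12 largest rises (left) and the 12 largest falls (right) in HET-labelled relative to WT organoids without DHT, with 1 point per library (circles for HET-labelled, squares for WT). The groups do not overlap in any of the 24 genes, a condition of their selection.

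Other large rises were in genes without such a named copy. Rec8, a cohesin subunit normally used in meiosis, had 4.898, 7.364 and 9.498 CPM in HET-labelled and 0.0738, 0.0202 and 0.0650 CPM in WT organoids (log2 7.02, SE 0.387). Cldn6, a claudin of embryonic epithelia, had 11.8, 17.7 and 22.5 CPM in HET-labelled and 0.738, 1.44 and 1.02 CPM in WT organoids (log2 4.03, SE 0.302). Both genes were low in WT organoids, and the fitted fold of Rec8, with very few WT reads, depends on the prior count. The X-linked gene Xlr3b rose by log2 5.42 and has close family members, so its value is uncertain. The interferon-inducible gene Ifi205 (4.05), the adhesion receptor Adgrg7 (3.40), Mvb12b of the endosomal sorting machinery (3.09), Tmem45a (3.06), Trim12a (2.91) and the vesicle protein Syt7 (2.82) followed. The imprinted growth inhibitor Grb10 rose to 4.83, 3.62 and 3.86 CPM in HET-labelled organoids, against 1.18, 1.07 and 1.10 CPM in WT organoids (log2 1.87, SE 0.17).

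Among falls without overlap in genes averaging 5 CPM or more in 1 group, Arntl2 and Ncam1 came next after Sptssb and Smoc2. The circadian factor Arntl2 fell to 1.67, 1.09 and 0.924 CPM in HET-labelled organoids, against 7.08, 7.26 and 6.87 CPM in WT organoids (log2 -2.55, SE 0.238). The adhesion molecule Ncam1 fell to 1.92, 3.16 and 2.65 CPM in HET-labelled organoids, against 14.4, 14.9 and 15.8 CPM in WT organoids (log2 -2.53, SE 0.174). Each WT value was more than 4 times the highest HET-labelled value of that gene. The basement membrane protein Fras1 (-2.45), the heparan sulfate sulfotransferase Hs3st3b1 (-2.30), the desmoglein Dsg4 (-2.22), the hyaluronan synthase Has2 (-1.97), Slitrk6 (-1.81) and the growth hormone receptor Ghr (-1.78) also fell.

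A few genes were read in 1 group only. Tff3, a secreted trefoil peptide of mucosae, had 16, 48 and 91 reads in HET-labelled libraries and 0 reads in each WT library. Taking 3 reads per WT library as the limit that 0 allows, its mean level was at least 16.9-fold higher in HET-labelled organoids. In tissue Tff3 varied widely, at 126 and 1746 CPM in HET-labelled and 953 and 1.15 CPM in WT libraries. The predicted genes Gm8494 and Gm15610, with 0 reads in WT libraries, had mean levels at least 233-fold and 31.3-fold higher. Gm8494 had 29.46, 8.526 and 5.338 CPM in HET-labelled replicates 1, 2 and 3, so its mean rests mostly on replicate 1. AK157302 and AC116841.1, with 0 reads in HET-labelled libraries, were at least 32.6-fold and 17.6-fold lower than the WT means. The call for AC116841.1 was lost without HET-labelled replicate 2 or 3 or WT replicate 1. With DHT, AC116841.1 had 0, 1.097 and 0 CPM in HET-labelled and 0, 1.165 and 0.723 CPM in WT organoids. It was not called there (log2 -1.01, adjusted p = 0.742). Gm8494, Gm15610 and AC116841.1 are annotated as processed pseudogenes, so reads could be split between copies and their separate values are uncertain.

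Genes near Brca1 were called about as often as others. Of 195 genes tested within 5 Mb of Brca1, 8 rose and 10 fell (9.23%), against 6.11% of 998 others on chromosome 11 and 7.9% of 14233 on other chromosomes. Those with the lowest p were Krt23, Krt39 (log2 2.30), Sp6 (-1.60), Cdc6, Top2a and Krt16. Several of the cell cycle and keratin genes described above thus lie on the chromosome segment around the targeted gene, and linkage to the allele cannot be told apart from an effect of the label.

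The same contrast was available with DHT, in libraries separate from those above. There 622 genes rose (4.03%) and 536 fell (3.47%), which is 7.51% in all. WT replicate 1 with DHT stood apart, with 11965815 reads, of which the gene Lars2 took 28.09%. Without this library 839 genes were called with DHT. It also entered the shared spread, and without it 1251 genes were called without DHT, a setting chosen after seeing the data. Of the genes that rose without DHT 454 also rose with it, which is 65.0% of the 698 and 73.0% of the 622. Of those that fell, 318 fell in both media, 62.7% of the 507 and 59.3% of the 536, and 0 genes were called in opposite directions. The sign was the same in both media for 692 of the 698 risen genes (99.1%) and 497 of the 507 fallen genes (98.0%), against 70.3% of all tested genes.

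**Figure D5:**
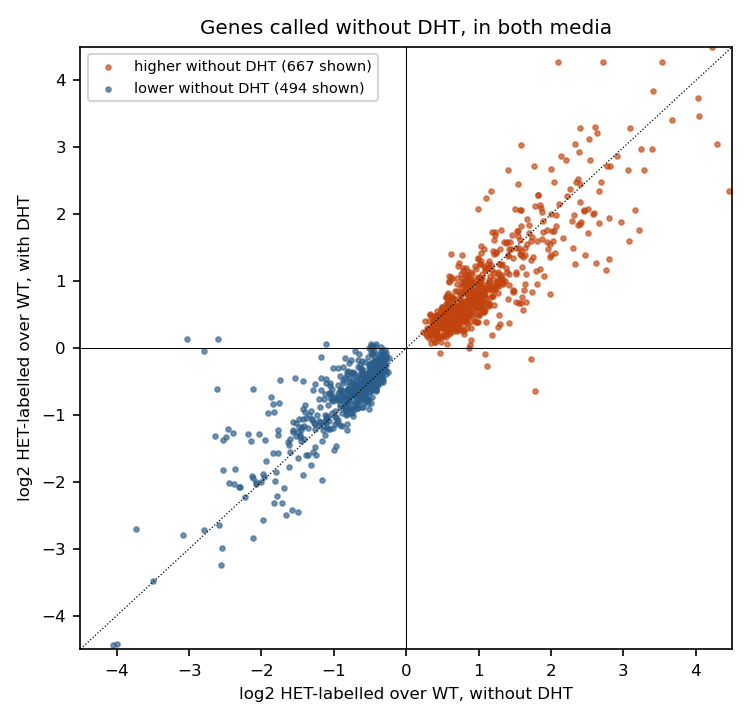
Log2 change of HET-labelled over WT organoids without DHT (x axis) and with DHT (y axis) for genes called without DHT, with equal changes on the dotted line. The plot shows 1161 of the 1205 genes, those within 4.5 on both axes, and most lie in the lower left or upper right quadrant.

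Division genes were called with DHT as well. Of the mitotic kinase list 20 of 28 rose with DHT (median 0.67), of the spindle list 17 of 28 (0.65), of the kinetochore list 13 of 31 (0.61), of the replication list 14 of 48 (0.37) and of the recombination list 8 of 40 (0.23), and 0 fell in any of the 5 lists. Nek2 had 37.0, 35.5 and 32.5 CPM in HET-labelled and 19.6, 21.0 and 19.2 CPM in WT organoids with DHT (log2 0.81). Sparc had 16.9, 18.4 and 17.1 CPM in HET-labelled and 59.3, 76.6 and 72.9 CPM in WT organoids with DHT (log2 -1.999, SE 0.0932).

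The difference between the HET effects without and with DHT was tested directly. In edgeR 0 genes passed, with 433 at an unadjusted p under 0.05, and DESeq2 called 6. The matrix gene Smoc2 came closest in edgeR, with log2 changes of -2.65 without and -1.32 with DHT (difference -1.33, SE 0.23, adjusted p = 0.517), and DESeq2 gave it a difference of -1.30 (adjusted p = 0.00244). Ncam1 (DESeq2 difference -1.14, adjusted p = 0.00884) and Adamts9 (DESeq2 difference -0.65, adjusted p = 0.00246) were likewise called by DESeq2 alone. In these 3 genes the fall was larger without DHT. Psca had log2 changes of 0.89 without DHT and 0.12 with it, and the difference was not called (0.77, SE 0.19, adjusted p = 1).

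Brca1-/- labelled organoids (KO-labelled) without DHT were compared with the same 3 WT libraries, so values are given side by side and are not independent. In that comparison 741 genes were called (4.8%), with 436 higher (2.83%) and 305 lower (1.98%). Spock1 (log2 7.95), Rec8 (7.01), Cldn6 (3.89), Sptssb (-3.89), Smoc2 (-2.21) and Arntl2 (-2.46) were called there in the same direction. Sparc had 104, 109 and 103 CPM in KO-labelled organoids (log2 0.15, adjusted p = 0.478 against WT), Xlr3b had a log2 change of -1.58 (adjusted p = 0.2), and Vim was higher than in WT (log2 1.01, adjusted p = 0.00305). Nek2 (0.48, adjusted p = 0.00383) passed and Aurka (0.26, adjusted p = 0.0887) and Plk1 (0.31, adjusted p = 0.101) did not. Kpna2, an importin, had log2 changes of 0.78 for HET-labelled and -3.87 for KO-labelled organoids, each against WT and both called.

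In anterior lobe tissue, with 2 libraries per group, 0 of 16753 genes passed edgeR between HET-labelled and WT, with 457 at an unadjusted p under 0.05, and DESeq2 called 10. Of the genes that rose in organoids without DHT, 376 of 672 tested in tissue were higher in HET-labelled tissue (median log2 0.10). Of the genes that fell, 293 of 488 were also higher there (median 0.21), as were 6968 of 13499 genes not called in organoids (median 0.02). Nek2 had 3.93 and 7.48 CPM in HET-labelled and 6.24 and 3.27 CPM in WT tissue, and Sparc had 132 and 228 CPM in HET-labelled and 334 and 320.5 CPM in WT tissue. The groups overlapped for Nek2 and were separated for Sparc, without a call.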

How the data were processed

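RNA libraries were made with Illumina protocols, per the labels. The deposited files list 116945 transcripts per library with lengths, estimated counts and TPM, and the submitters' processing notes list Salmon 0.13.1. They also name the build hg38, whereas the transcript identifiers are mouse Ensembl identifiers, and the values were read as mouse. The annotation behind the index, strand settings and trimming are not given in the sources used here. A gene and its antisense partner cannot be told apart where strand is unknown.

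Estimated counts, as deposited, were summed per gene with the GENCODE mouse release M21 map (GRCm38) and rounded. In each library 922 transcripts, holding 0.228% to 0.327% of reads, had no gene in that map and were left out. All 18 organoid libraries, of 11965815 to 58445041 reads, were fitted together in edgeR 4.0.16 (R 4.3.3) with filterByExpr, TMM scaling and the quasi-likelihood F-test, giving 12 residual degrees of freedom and a biological coefficient of variation of 0.214. Tissue was fitted separately with 3 residual degrees of freedom. P-values were adjusted by Benjamini-Hochberg over all genes, with a threshold of 0.05. CPM use TMM-scaled library sizes. Deposited TPM, summed per gene, were used only for markers and Brca1-201. In simulated data for the comparison without DHT, over 15224 genes, 73 of 100 genes changed by 2-fold and 25 of 100 changed by 1.5-fold were recovered, with 3 false calls. Counts were drawn independently around a mean profile shared by all organoid libraries, and the changed genes averaged over 1 CPM. No outlying library was simulated, so these figures need not hold for the real libraries.

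The libraries, the 54 gene lists and the naming rule were chosen with earlier results of these data known. The rule takes Brca1 and the steroid receptors. It adds the 12 largest called rises and falls without overlap, averaging 5 CPM or more in 1 group, without predicted genes, and genes read in 1 group only (at least 1 CPM against under 3 reads per library). It takes up to 6 called members of each list by lowest p, or the 2 highest where none was called. Some genes it names are not reported here. Alternatives were DESeq2 1.42.0, other scaling, filters, length offsets, mitochondrial share as a covariate, a replicate block, the 6 libraries alone and single libraries left out. Settings that left out HET-labelled and KO-labelled replicate 1 together, or the smallest library, were chosen after seeing the data. Of the promoters chosen, that of Lig1 has 3 RefSeq starts and is not shown.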

Additional observations from a re-analysis of the deposited data

How the results depend on the processing

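Without DHT, 1205 genes were called. The count was 2281 when the share of mitochondrial reads entered as a covariate, and 398 with the 6 libraries fitted alone, where 68.8% of calls were higher against 57.9%. It ranged between 812 and 1476 when single libraries were left out, lowest without WT replicate 2 and highest without HET-labelled replicate 3, and was 1213 without replicate 1 of both HET-labelled and KO-labelled organoids, a choice made after seeing the data. With DHT, 1158 genes were called, 2727 with the covariate and 709 to 841 with single libraries left out (736 without HET-labelled replicate 2, 709 without HET-labelled replicate 3, 720 without WT replicate 3). The difference between media gave 0 calls, 6 in DESeq2, 2 with the covariate and 1 with the replicate block. Tissue gave 0 calls, 10 in DESeq2, 2 without the low-count filter, 84 without WT replicate 1, and 0 to 84 over single libraries left out. Counts without DHT under DESeq2 (1686), its size factors (1203), length offsets (924), no filter (963), a stricter filter (1189) and protein-coding genes only (1199) were within 1.5 times. The causes were not tested.

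Fitted alone, the 6 libraries gave 15 higher spindle genes, 10 kinetochore, 5 chromosome structure, 12 replication and 6 recombination genes, 1 lower collagen gene and 0 lower cholesterol genes. Of 216 named genes tested, 0 reversed under any alternative. In that fit 88 lost their call, against 24 with length offsets, 20 without the filter and 13 to 37 with single libraries left out.

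The libraries were not treated as paired by replicate number. Deviations from the group mean of same-numbered HET-labelled and WT libraries correlated at -0.333, -0.311 and -0.914 over 5000 genes. Other pairs ran from -0.647 (HET-labelled 1 with WT 2) to 0.802 (HET-labelled 1 with WT 3). With 3 libraries per group the deviations are not independent, so these values cannot show whether the numbers pair. With the number as a block, 1371 genes were called without DHT, and 1 named gene lost its call. Depth limits genes near the limit of 3 reads, whose fold changes are bounds. Counting error is the only error such bounds cover.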

Other observations

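Some gene groups outside the comparisons described above also held called genes between HET-labelled and WT organoids without DHT. Their counts are to be read beside the shares of all tested genes, of which 4.52% rose and 3.29% fell. Spry4, an inhibitor of receptor tyrosine kinase signalling, had 8.53, 8.87 and 9.74 CPM in HET-labelled and 4.54, 4.03 and 4.53 CPM in WT organoids (log2 1.05, SE 0.125, edgeR adjusted p = 5.62e-05), and Spry2 rose by log2 0.43, a call lost without WT replicate 1. Of 39 genes of EGF signalling and MAPK output 3 rose and 4 fell, among them Spred3, also an inhibitor of MAPK signalling, with a median log2 change of -0.02. These counts became 2 and 0 without HET-labelled replicate 2 or WT replicate 1, 2 and 2 without HET-labelled replicate 1, and 2 and 1 without WT replicate 2. In the IGF axis, 2 of 14 rose, the binding proteins Igfbp7 (log2 0.62, SE 0.124) and Igfbp4 (0.73, SE 0.148), and the clearance receptor Igf2r fell (-0.43, SE 0.0906). With the 6 libraries fitted alone, 0 of the 14 were called.

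Of 32 unfolded protein and integrated stress response genes 4 rose and 0 fell. Asns, asparagine synthetase, had 104.6, 103.9 and 110.4 CPM in HET-labelled and 75.9, 56.2 and 61.7 CPM in WT organoids (log2 0.72, SE 0.102, edgeR adjusted p = 0.000283). The stress factor Ddit3 rose by log2 0.71, and lost its call without HET-labelled replicate 1 or 2 or WT replicate 2 or 3. Without HET-labelled replicate 1 or WT replicate 3, 2 of the list rose, and without HET-labelled replicate 2 or WT replicate 2, 1 rose. Of 32 ion transport genes 4 rose and 3 fell, with the sodium channel subunit Scnn1a at log2 0.80 (SE 0.149) and the chloride channel Cftr at -1.07 (SE 0.227), and 3 rose and 1 fell without HET-labelled replicate 2. In the fit of the 6 libraries alone, 0 of these 32 were called.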
